A study of Mus musculus with 2 samples.

Results

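Glycolysis and the hypoxia response were followed through 32 genes in single cells from mouse bone marrow cultures, with and without human mesenchymal stromal cells (MSC) beside them. The 32 genes are glucose and lactate transporters, glycolytic enzymes, oxygen sensors and known targets of hypoxia-inducible factor, chosen by name and matched to the gene symbols of the deposited tables. Earlier results of these data were known when they were chosen. Each was found once among the 47729 genes listed. The study set out to describe, cell by cell, the myeloid suppressor cells that arise when bone marrow is cultured with MSC.

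Both groups were femur bone marrow cells of C57BL/6NCrljOri, H-2b mice, treated for 5 days with GM-CSF at 40 ng/mL, a cytokine that drives myeloid differentiation, in medium with 10% serum, after lysis of red cells. The group without coculture was grown in RPMI1640 and sorted as CD11b-high Ly6C-high cells. In the other group MSC, incubated alone for 24 h beforehand, sat in culture inserts at a ratio of 1 to 5 marrow cells, the medium was DMEM, and the sorted cells were CD11b-mid Ly6C-mid. Each group is 1 library, and the number of mice behind it is not given in the sources used here. Coculture, medium, sort gate and library differ together and cannot be told apart, so each comparison is between these 2 libraries. The oxygen level at the cells was not measured in the data used here.

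Glycolysis splits glucose to pyruvate, and lactate dehydrogenase turns pyruvate into lactate when it is not passed to mitochondria. In oxygen, prolyl hydroxylases (the Egln genes) mark the alpha subunit of hypoxia-inducible factor for destruction. When oxygen is low, or when inflammatory signals stabilise the subunit in myeloid cells, the factor binds short DNA motifs with the core ACGTG or GCGTG and raises glucose transporters, glycolytic enzymes, Pdk1, Vegfa, Bnip3 and its own brake Egln3. Neutrophils are known to draw much of their energy from glycolysis.

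The bases before the transcription start show which of the genes carry that core close by. RefSeq windows of 250 bases before the start (GRCm38.p6) were found for 29 of the 32 genes, Ero1l under its current symbol Ero1a, and not for Slc2a3, Ndrg1 and Bhlhe40. The letters ACGTG, on either strand, stood in a window of 19 of these 29 genes (65.5%), against 18.5% of 27025 genes. Among the transport and glycolysis genes it was 9 of 17 (52.9%), and among Pdk1, the oxygen sensors and the other hypoxia targets 10 of 12 (83.3%). Counted by window, ACGTG was in 21 of 40 (52.5%) against 16.6% of 32851, and GCGTG in 21 of 40 (52.5%) against 28.2%. The windows of the 32 genes were richer in G and C, with a median of 63.2% against 52.4% and 16.5 CG pairs against 6, and the part of base composition in these shares was not tested. The list was also chosen to include known targets of the factor that binds these cores, so the shares are not independent of that choice. The 6 windows below belong to genes that were at least 2-fold higher in the coculture library in both cell classes compared further on. Capitals mark ACGTG on either strand (read as CACGT on the other one), and a CACGTG holds both. Of the 6, 5 carry it, and Mif is shown for contrast as a gene without it. Genes that carry it but were not 2-fold higher in both classes include Slc16a3, Pgk1, Pgam1 and Ldha. Whether genes with the letters were higher more often than those without was not counted.
Egln3 (chr12:54203875-54204124, minus strand): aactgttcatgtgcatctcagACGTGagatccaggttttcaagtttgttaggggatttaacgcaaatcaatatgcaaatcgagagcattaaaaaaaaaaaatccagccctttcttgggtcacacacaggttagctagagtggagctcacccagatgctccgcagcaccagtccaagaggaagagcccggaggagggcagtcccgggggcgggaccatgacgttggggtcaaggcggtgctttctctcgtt
Hif1a (chr12:73907617-73907866, plus strand): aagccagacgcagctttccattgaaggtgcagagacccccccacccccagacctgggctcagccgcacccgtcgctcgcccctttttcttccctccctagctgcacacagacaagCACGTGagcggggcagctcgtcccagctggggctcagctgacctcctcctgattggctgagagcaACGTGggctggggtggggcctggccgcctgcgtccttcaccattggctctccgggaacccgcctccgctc
Bnip3 (chr7:138909520-138909756, minus strand): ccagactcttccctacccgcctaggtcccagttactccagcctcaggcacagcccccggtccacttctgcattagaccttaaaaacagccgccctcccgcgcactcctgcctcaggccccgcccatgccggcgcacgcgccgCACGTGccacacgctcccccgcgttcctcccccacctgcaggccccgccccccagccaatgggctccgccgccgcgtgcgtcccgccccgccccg
P4ha1 (chr10:59323046-59323295, plus strand): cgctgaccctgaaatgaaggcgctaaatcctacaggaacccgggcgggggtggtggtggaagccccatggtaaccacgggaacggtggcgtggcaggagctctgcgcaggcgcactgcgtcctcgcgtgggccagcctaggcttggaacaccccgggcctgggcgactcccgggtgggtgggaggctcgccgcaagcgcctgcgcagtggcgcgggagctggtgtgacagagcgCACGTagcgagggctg
Hk2 (chr6:82774455-82774704, minus strand): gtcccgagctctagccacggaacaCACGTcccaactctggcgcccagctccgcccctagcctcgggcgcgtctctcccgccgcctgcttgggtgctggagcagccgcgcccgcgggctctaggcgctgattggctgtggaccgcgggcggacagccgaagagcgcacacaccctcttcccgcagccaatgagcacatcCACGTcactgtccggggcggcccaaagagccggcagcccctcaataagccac
Mif (chr10:75860278-75860527, minus strand): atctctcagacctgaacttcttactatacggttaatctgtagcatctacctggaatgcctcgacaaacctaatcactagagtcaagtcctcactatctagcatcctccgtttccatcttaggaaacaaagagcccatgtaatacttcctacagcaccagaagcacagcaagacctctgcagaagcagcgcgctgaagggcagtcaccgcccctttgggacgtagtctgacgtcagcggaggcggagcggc
The Bnip3 window ends where the annotation begins an exon. A match in these letters is a description and not a measured binding site.

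The library without coculture held 1817 cells that showed 500 genes or more and no more than 10% of UMIs from mitochondria (UMIs are unique molecular identifiers, each 1 captured transcript), and the coculture library held 3005. Their medians were 7016 and 6031 UMIs per cell. The gate markers went the way of the sorts over all cells, Itgam (CD11b) at 351 and 144 CPM and Ly6c2 at 344 and 96.9 CPM, where CPM is the usual scaling of a gene's UMIs to the total UMIs of the cells summed. Coculture cells gated as B lineage, mature dendritic and megakaryocyte, however, held Itgam at only 2.91, 2.35 and 2.94 CPM, so the transcript of the sorted surface protein was near 0 there, and the protein itself was not measured in these data. In cells gated as neutrophil and as macrophage/monocyte, Itgam went against the direction of the sorts. Without and with coculture it stood at 336 and 518 CPM in the first and at 378.5 and 465 CPM in the second. Ly6c2 was lower with coculture in both, at 465 and 244 CPM and at 306 and 13.1 CPM. Barcodes shared by the libraries numbered 4 as deposited and 2 among kept cells.

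Cells were put in classes by their summed markers, with no clustering. The classes found in both libraries were neutrophil-gated cells (777 without coculture, 322 in the coculture) and macrophage/monocyte-gated cells (530 and 55). A further 7 classes reached 50 cells only in the coculture library. In the library without coculture 395 cells (21.7%) passed no gate and 91 (5.01%) passed several, and in the coculture library 296 (9.85%) and 234 (7.79%), and these were left out of the classes. Doublets were not removed. With 1 library per group no test was run, and the intervals given are exact 95% intervals that cover counting error only.

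The 32 genes took a larger share of all UMIs in the coculture library, and the gap was wider inside each shared class than over all cells. Over all kept cells they held 1.076% of UMIs without coculture (298967 UMIs) and 1.468% in the coculture (427164 UMIs), a log2 ratio of 0.45 (0.44 to 0.46). In neutrophil-gated cells the share was 1.194% (1.185 to 1.204%) and 2.049% (2.033 to 2.065%), 1.72-fold higher. In macrophage/monocyte-gated cells it was 1.026% (1.021 to 1.031%) and 1.609% (1.583 to 1.636%), 1.57-fold higher. The sum over all cells mixes different cells in the 2 libraries, and with each cell given equal weight its log2 ratio was 0.19.

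Single cells varied widely within a class. Among neutrophil-gated cells the quartiles of the share were 0.774 and 1.40% around a median of 0.995% without coculture, and 1.56 and 2.69% around 2.01% in the coculture. The lower quartile of the coculture cells thus lay above the upper quartile of the others. For macrophage/monocyte-gated cells the medians were 0.949 and 1.54%, with quartiles of 0.780 and 1.18% and of 1.19 and 1.95%. Cells of 1 library are not replicates, and these spreads say nothing of how another culture would behave.

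**Figure D1:**
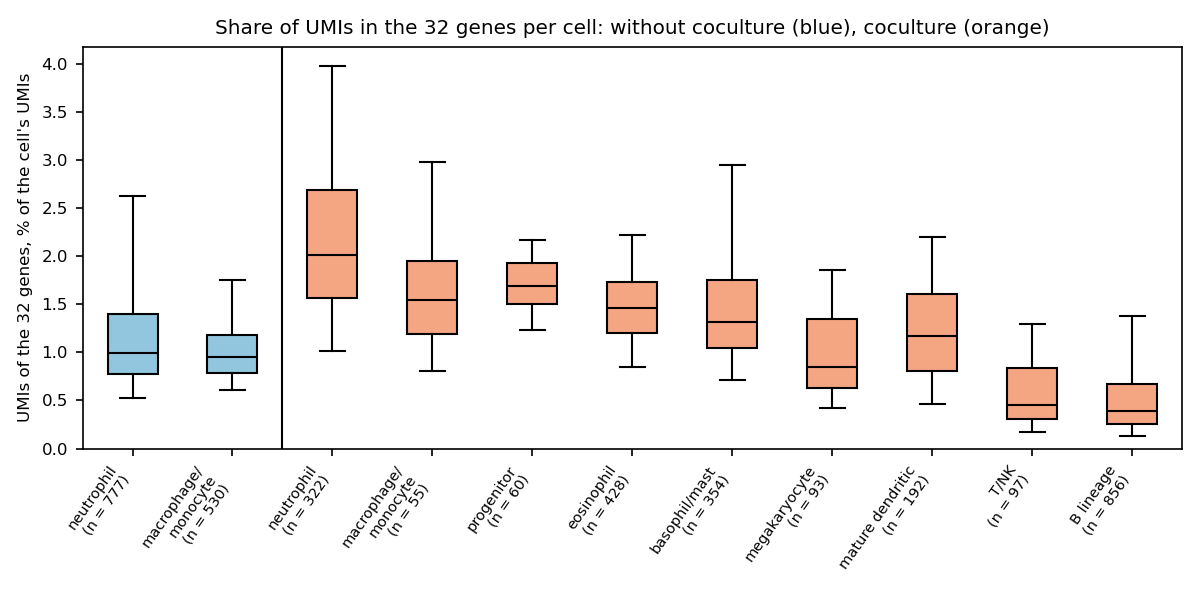
Share of each cell's UMIs in the 32 genes (%, vertical axis) by marker-gated class (horizontal axis, n cells), without coculture in blue and coculture in orange; boxes are quartiles with the median, and whiskers run from the 5th to the 95th percentile of cells. Neutrophil-gated coculture cells have the highest median, 2.01%, and B lineage-gated cells the lowest, 0.392%.

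Most of the genes that were higher in neutrophil-gated coculture cells were oxygen sensors and hypoxia targets, while the abundant enzymes of glycolysis differed less. In these cells 18 of the 32 genes (56.2%) passed 2-fold upward and 0 downward, against 9.08 and 6.32% of the 7449 measured genes (at least 10 CPM on either side). The median log2 ratio of the 32 genes was 1.15, against 0.02 over all measured genes. In macrophage/monocyte-gated cells 15 of 31 measured genes were higher and 0 lower, against 8.56 and 12.1% of 8413, with a median of 0.99 against -0.17. Over all cells 9 of 32 were higher and 0 lower, against 12.7 and 11.7% of 8668, with a median of 0.48 against 0.03. Because the 32 genes were chosen with earlier results of these data known, these counts are not independent of the data.

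Glucose enters through Slc2a1 (GLUT1) and Slc2a3 (GLUT3), and lactate leaves through Slc16a3 (MCT4). Slc2a1 (chromosome 4) stood at 84.9 and 245 CPM in neutrophil-gated cells, the value without coculture first here and in what follows, a log2 ratio of 1.53 (1.36 to 1.70). Macrophage/monocyte-gated cells held it at 76.2 and 177 CPM (1.22, 0.97 to 1.46). Both classes were thus more than 2-fold higher, while over all cells Slc2a1 differed little, at 78.5 and 81.8 CPM. Slc2a3 behaved in the opposite way, with 16.0 and 98.9 CPM over all cells (2.63) but 52.3 and 78.0 CPM in neutrophil-gated cells (0.58, 0.32 to 0.83). Slc16a3 had log2 ratios of 0.93 and 0.80 in the neutrophil- and macrophage/monocyte-gated cells, short of 2-fold in both.

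The upper steps trap glucose and split it to triose phosphates. Of the 7 genes, the hexokinase gene Hk2 (46.4 and 102 CPM, log2 ratio 1.14, 0.89 to 1.39) and the phosphofructokinase gene Pfkp (94.3 and 211 CPM, 1.16, 0.99 to 1.33) passed 2-fold in neutrophil-gated cells. Their isozyme genes Hk1 (0.66) and Pfkl (0.73) did not, nor did Gpi1 (glucose phosphate isomerase, 0.68), Aldoa (aldolase, 0.54) or Tpi1 (triosephosphate isomerase, 0.92). Hk2 alone passed in macrophage/monocyte-gated cells, at 65.8 and 132 CPM (1.01, 0.72 to 1.28), which is at the threshold. Summed, the 7 genes were at 3144 and 5019 CPM in neutrophil-gated cells and at 2432 and 3925 CPM in macrophage/monocyte-gated cells, log2 ratios of 0.67 and 0.69.

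The lower steps carry the flow from glyceraldehyde phosphate to lactate. The phosphoglycerate kinase gene Pgk1 was at 36.8 and 97.0 CPM in neutrophil-gated cells (1.40, 1.13 to 1.67) and just under 2-fold in macrophage/monocyte-gated cells (0.99). Gapdh (0.61), Pgam1 (phosphoglycerate mutase, 0.83), Eno1 (enolase, 0.41) and Ldha (lactate dehydrogenase, 0.78) were higher by less than 2-fold in neutrophil-gated cells. Pkm, the pyruvate kinase gene, was the only enzyme of this group not higher there, at 2016 and 1848 CPM (-0.13, -0.17 to -0.08). Summed, the 6 genes had log2 ratios of 0.46 and 0.34 in the neutrophil- and macrophage/monocyte-gated cells. Several of these enzymes have processed pseudogenes or a near-identical copy that reads can share, so their own levels are uncertain (the copy Eno1b held 110 and 114 UMIs over all cells).

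Pfkfb3 and Pfkfb4 make or remove the fructose bisphosphate that activates phosphofructokinase, and they moved apart. Pfkfb3 was at 15.1 and 82.7 CPM in neutrophil-gated cells (79 UMIs without coculture), a log2 ratio of 2.46 (2.08 to 2.84). Pfkfb4 was at 33.8 and 19.6 CPM (177 and 59 UMIs; -0.79, -1.24 to -0.35), short of 2-fold lower. In macrophage/monocyte-gated cells Pfkfb3 had a log2 ratio of 1.40 (0.87 to 1.89) and Pfkfb4 of -0.50 (-1.52 to 0.36). Pdk1, the kinase that closes the pyruvate gate to mitochondria, was at 20.03 and 73.4 CPM in neutrophil-gated cells (1.87, 1.53 to 2.22) and at 41.5 and 63.4 CPM in macrophage/monocyte-gated cells (0.61, 0.20 to 1.00).

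All 3 oxygen sensing genes were at least 2-fold higher in both classes. Hif1a (ENSMUSG00000021109), the alpha subunit itself, was at 60.3 and 373 CPM in neutrophil-gated cells (2.63, 2.45 to 2.81) and at 126 and 388 CPM in macrophage/monocyte-gated cells (1.63, 1.46 to 1.79). Its gene body lies on mm10 chromosome 12, 73901375 to 73947530. The window printed above lies inside it, because the RefSeq start used there is downstream of the start of this gene body. The coculture levels of the 2 classes were close, while without coculture the neutrophil-gated cells held less. Egln3, the hydroxylase gene whose window is printed above with 1 match, was at 123 and 405 CPM in neutrophil-gated cells (1.72) and at 29.9 and 234 CPM in macrophage/monocyte-gated cells (2.97, 2.73 to 3.21). Egln1, the main oxygen sensor, had log2 ratios of 1.41 and 1.26. These are transcript levels, and the factor is mainly controlled as a protein, which was not measured.

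Of the 10 other hypoxia targets, 9 were at least 2-fold higher in each of the classes. Hilpda, which encodes a lipid droplet protein that inhibits fat breakdown, had the highest ratio: 11.1 CPM (58 UMIs) without coculture and 362 CPM (1089 UMIs) in the coculture in neutrophil-gated cells, a log2 ratio of 5.03 (4.65 to 5.44). Macrophage/monocyte-gated cells held it at 11.6 and 156 CPM (3.75, 3.43 to 4.07). Hilpda (ENSMUSG00000043421, mm10 chromosome 6, 29272488 to 29275446) was thus at a like low level in both classes without coculture.

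The angiogenic factor gene Vegfa was at 48.5 and 323 CPM in neutrophil-gated cells (2.74, 2.53 to 2.94) and at 60.5 and 298 CPM in macrophage/monocyte-gated cells (2.30). Ero1l, the oxidase gene for disulfide bonds in the endoplasmic reticulum, was at 152 and 732 CPM (2.27) and at 83.6 and 503 CPM (2.59). Bnip3, a mitophagy receptor gene, was at 94.5 and 386 CPM (2.03) and at 49.8 and 278 CPM (2.48). For each of these 3 genes the coculture level of either class was above both levels without coculture.

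Mif, the gene of macrophage migration inhibitory factor, was at 254 and 1173 CPM in neutrophil-gated cells (2.21, 2.12 to 2.30) and at 350 and 935 CPM in macrophage/monocyte-gated cells (1.42). Ddit4, a stress-induced inhibitor of the growth kinase mTOR, had log2 ratios of 2.04 and 3.21, from only 66 UMIs without coculture in the second. The collagen prolyl hydroxylase gene P4ha1 (1.74 and 1.24), Ankrd37 (1.19 and 1.29) and Ndrg1 (1.13 and 1.23) passed 2-fold by less. Bhlhe40, a transcriptional repressor gene, was the exception, at 177 and 175 CPM in neutrophil-gated cells (-0.01, -0.17 to 0.15) and 259 and 232 CPM in macrophage/monocyte-gated cells. As groups, the 3 oxygen sensors had summed log2 ratios of 1.89 and 1.78, and the 10 targets 1.99 and 1.54.

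**Figure D2:**
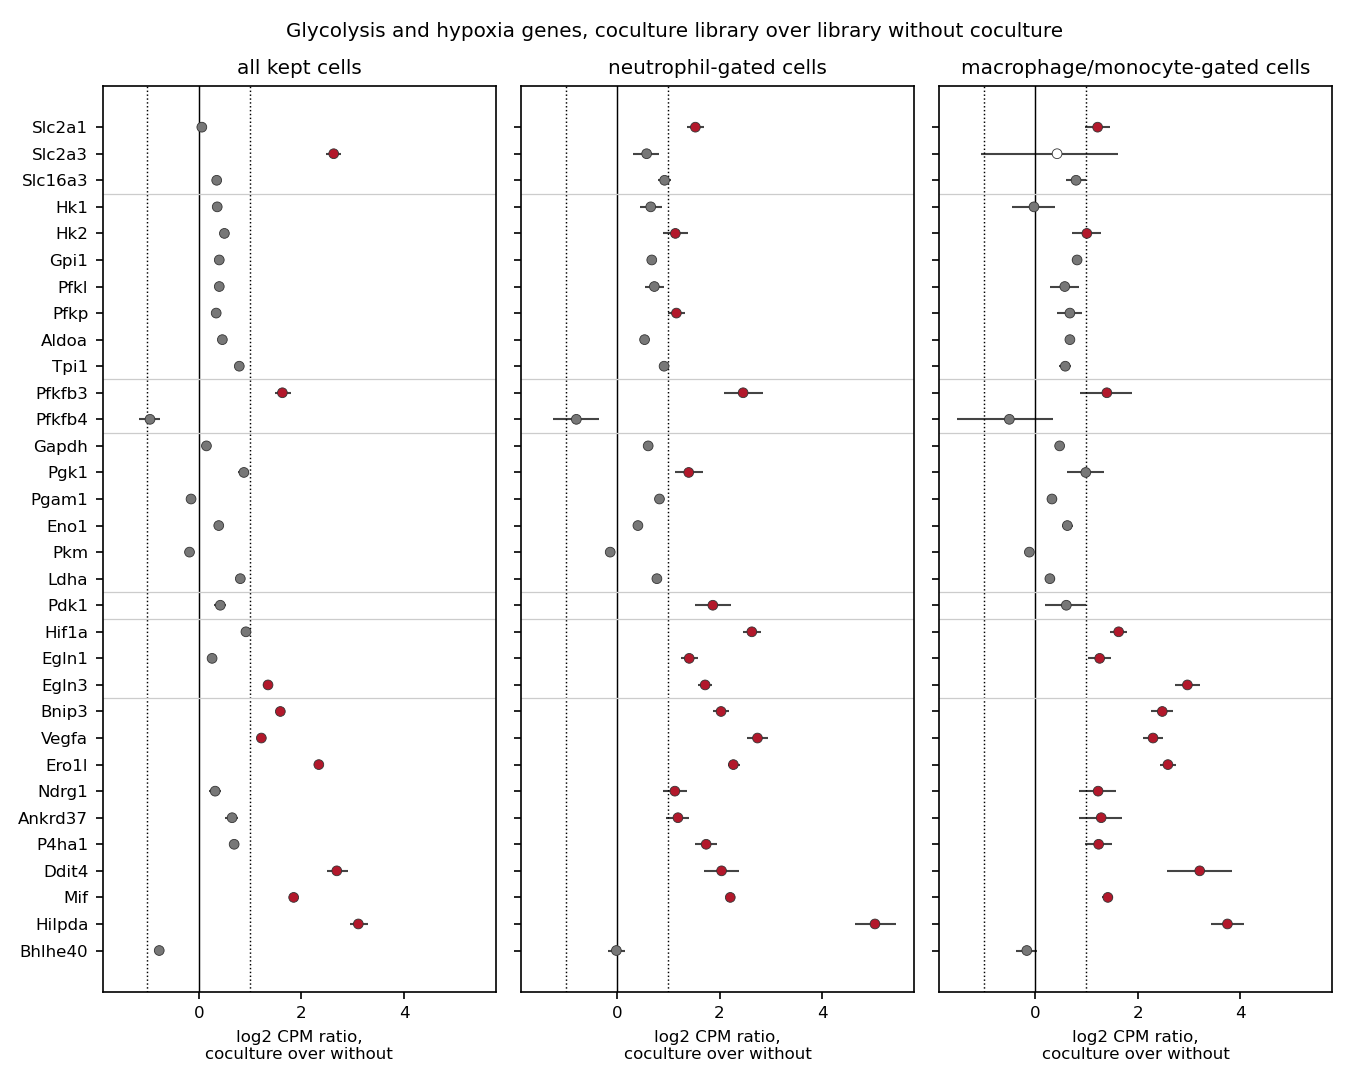
Log2 CPM ratio of the coculture library over the library without coculture (horizontal axis) for each of the 32 genes (vertical axis, grouped by role), over all kept cells, neutrophil-gated cells and macrophage/monocyte-gated cells; lines are 95% counting intervals, dotted lines mark 2-fold, red points are at least 2-fold higher and the open point was under the CPM minimum. Hilpda has the highest ratio in each panel, and Pkm, Pfkfb4 and Bhlhe40 lie below 0 in each.

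Over all cells the 9 genes at least 2-fold higher were Hilpda (3.11), Ddit4 (2.69), Slc2a3 (2.63), Ero1l (2.34), Mif (1.85), Pfkfb3 (1.63), Bnip3 (1.59), Egln3 (1.35) and Vegfa (1.22). Given equal weight per cell, Egln3 and Bnip3 no longer passed. Slc2a1, Hk2, Egln1, Ndrg1, Ankrd37, P4ha1 and Hif1a, higher in both classes, were under 2-fold over all cells, with log2 ratios from 0.06 to 0.92. Pfkfb4 (-0.95) and Bhlhe40 (-0.77) had the lowest ratios.

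The cells compared as neutrophil-gated were not alike in other genes. From the library without coculture to the coculture library, S100a8 was at 67287 and 38469 CPM, the granule gene Ltf at 1962 and 280 CPM, Lyz2 at 12904 and 2757 CPM and Arg1 at 1 UMI and 3026 CPM. Macrophage-associated genes were higher in the coculture cells, Fn1 at 13.6 and 864 CPM and Csf1r at 55.7 and 208 CPM, and the median of the 15 macrophage/monocyte markers was 2.38 and 8.73 UMIs per 10000, with 0 and 2 of these markers at 0. The mitochondrial share was 2.16 and 1.14%, and Mki67, a marker of division, 51.3 and 44.5 CPM. With neutrophil-gated cells limited to those low in macrophage/monocyte markers (626 and 177 cells), 17 of the 18 genes still passed and the summed log2 ratio was 0.71. With the gate limited to cells with mature neutrophil genes (601 and 281 cells), 16 of the 18 passed, and the 2 lost were Ndrg1 and Ankrd37.

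The macrophage/monocyte-gated class rests on 55 coculture cells and 914201 UMIs, against 530 cells and 16006402 UMIs. Lyz2 was at 31285 and 4425 CPM, C1qa at 67.9 and 1678 CPM and Arg1 at 35.3 and 2740 CPM, so this class too differs in its defining genes. With gate thresholds halved only 24 coculture cells were left and Slc2a1, Ndrg1 and P4ha1 no longer passed. Depth differed as well, with medians of 24138 and 14704 UMIs per cell, and the part of cell make-up and depth in the ratios was not tested.

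Arg1, the arginase gene often used to mark suppressive myeloid cells, split the neutrophil-gated coculture cells into 229 with at least 1 Arg1 UMI and 93 with none. The split depends on depth, with medians of 7852 and 5369 UMIs, and Fn1 (1034 and 172 CPM), Ltf (73.6 and 1120 CPM) and Ly6g (59.6 and 175 CPM) differed along with it. The 32 genes took 2.135% of UMIs (2.117 to 2.153%) in the Arg1-positive and 1.699% (1.666 to 1.733%) in the Arg1-negative cells. Both shares were above the 1.194% without coculture. Between the Arg1-positive and Arg1-negative cells the median log2 ratio of the 32 genes was 0.39, against 0.21 over all measured genes. Other genes thus also tended to be higher in the Arg1-positive cells, and S100a8 stood at 31312 and 67627 CPM. The summed log2 ratios differed by role. They were 0.10 for upper glycolysis, 0.14 for transport, 0.32 for lower glycolysis and lactate and 0.60 for oxygen sensing. For the other hypoxia targets the ratio was 0.66, for Pfkfb3 with Pfkfb4 0.68 and for Pdk1 1.38. The part of the general shift in the gap was not tested, and this split was not repeated with another scaling.

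Against neutrophil-gated cells without coculture, the Arg1-positive cells had 18 genes higher and 0 lower (10.6 and 6.88% of measured genes), and the Arg1-negative cells 14 higher and 1 lower (6.87 and 10.9%). The 1 lower gene was Pfkfb4, on 8 UMIs. Both sets of ratios share the cells without coculture. Set against each other, 4 of 32 genes were higher in the Arg1-positive cells and 1 lower, against 11.1 and 4.03% of all measured genes, so these counts are near the background.

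The 4 genes were Vegfa, at 370 and 130 CPM in Arg1-positive and Arg1-negative cells (log2 ratio 1.51, 1.18 to 1.87), Hilpda at 414 and 148 CPM (1.48, 1.17 to 1.81), Pdk1 at 83.5 and 32.01 CPM (1.38, 0.70 to 2.15) and Bnip3 at 432 and 197 CPM (1.13, 0.85 to 1.42). Slc2a3 went the other way, at 59.6 and 153 CPM (-1.36, -1.75 to -0.97). Aldoa (-0.01), Pfkp (-0.01), Hk1 (0.07), Bhlhe40 (0.04) and Hk2 (-0.13) were nearly level. Hilpda in Arg1-negative cells, at 148 CPM (119 to 183), was still far above its 11.1 CPM without coculture.

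**Figure D3:**
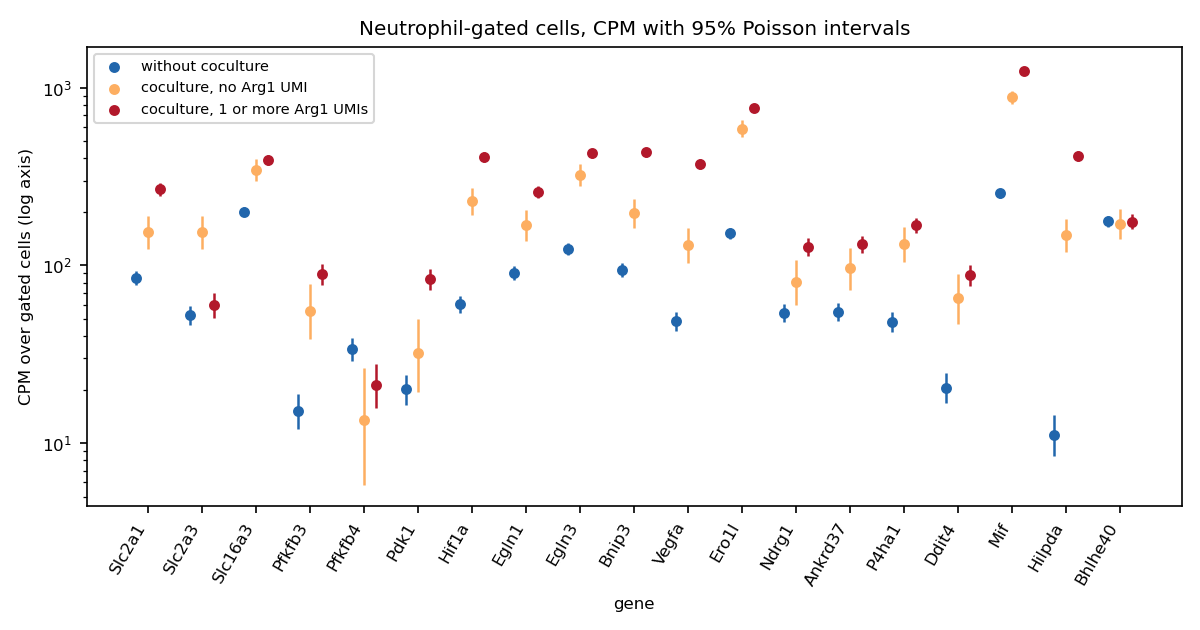
CPM on a log axis (vertical) for the transport, regulator, oxygen sensing and target genes (horizontal) in neutrophil-gated cells without coculture (blue), in the coculture without an Arg1 UMI (orange) and with 1 or more (red); points are sums over cells and lines 95% Poisson intervals. For Hilpda the 3 points stand at 11.1, 148 and 414 CPM, while Bhlhe40 is level at 177, 172 and 176 CPM.

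Across the 9 coculture classes the summed share ran from 0.573% to 2.049%. The order was neutrophil (2.049%), progenitor (1.745%, 60 cells), macrophage/monocyte (1.609%), eosinophil (1.562%, 428 cells) and basophil/mast (1.532%, 354 cells). Mature dendritic (1.267%, 192 cells), megakaryocyte (0.989%, 93 cells), T/NK (0.668%, 97 cells) and B lineage (0.573%, 856 cells) cells followed. No intervals of neighbours in this order overlapped, the closest being eosinophil- (1.553 to 1.571%) and basophil/mast-gated cells (1.519 to 1.546%). Part of the order rests on Gapdh. Without it the macrophage/monocyte-, eosinophil- and basophil/mast-gated cells held 1.239, 1.247 and 1.262%, the reverse of their order above. Cells that passed no gate held 1.641%, against 1.155% without coculture. The classes also differed in median depth, from 1910 UMIs (T/NK) and 2828 (B lineage) to 22549 (progenitor).

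Neutrophil-gated cells had the highest level of 18 of the 32 genes among the 9 classes, and B lineage-gated cells the lowest of 17. For Gpi1, Pfkfb4, Pgk1, Eno1, Egln1, Ndrg1, P4ha1 and Ddit4 the interval in neutrophil-gated cells overlapped with that of the next class. How often all measured genes stood highest or lowest in these classes was not counted, so these 2 counts have no background. Against the other gated coculture cells, 13 genes were at least 2-fold higher in neutrophil-gated cells and 0 lower, while 12.1 and 26.1% of 8611 measured genes were. With each cell given equal weight 21 genes were higher, and with TMM factors (a scaling that discounts genes that differ strongly) 18. Hilpda led at 362 and 41.6 CPM (3.12, 2.99 to 3.25), then Egln3 at 405 and 70.1 CPM (2.53) and Slc2a1 at 245 and 48.9 CPM (2.32). Neutrophil-gated cells held 38.8% of the coculture library's Hilpda UMIs and 32.5% of its Egln3 UMIs, with 10.4% of all its UMIs. Vegfa (1.95), Egln1 (1.88), Ankrd37 (1.86), Ndrg1 (1.81), Bnip3 (1.59), Hif1a (1.37), Slc16a3, Pgam1 (1.03), Pfkfb4 (1.03) and Pfkfb3 (1.00) made up the rest.

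Macrophage/monocyte-gated cells had 5 genes higher and 1 lower than the other gated cells (background 11.9 and 14.7%). The 5 were Slc2a1, Hif1a, Egln1, Egln3 and Vegfa, and the lower gene was Slc2a3. Hif1a at 388 CPM here and 373 CPM in neutrophil-gated cells had overlapping intervals, as did Egln1 (199 and 241 CPM) and P4ha1 (152 and 160 CPM). These are the 2 classes in which the oxygen sensing genes stood highest.

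In eosinophil-gated cells the genes of lower glycolysis and lactate stood above the other gated cells in sum, at 8988 and 6511 CPM, and the oxygen sensors below, at 193 and 471 CPM. A single gene, Ldha, was at least 2-fold higher there and 10 were lower, against 6.37 and 19.6% of measured genes. Ldha stood at 2474 CPM, against 473.8 to 1757 CPM in the other 8 classes. Eosinophil-gated cells held 42.5% of the Ldha UMIs in the coculture library and 25.6% of all UMIs there. The 10 lower genes included Ndrg1 at 10.7 CPM, Ankrd37 at 11.9 CPM, Hilpda at 25.2 CPM and Vegfa at 32.6 CPM. With Mif at 1616 CPM, the second highest of the classes, the 10 other hypoxia targets were nevertheless level in sum, at 2399 and 2441 CPM. Epx, the eosinophil peroxidase gene, was at 12065 CPM in this class and at 17.5 to 41.7 CPM in the other classes. RNA from outside the cell was not removed, and Epx alone does not give its size. S100a8 was at 516 CPM in basophil/mast-, 295 CPM in eosinophil-, 105 CPM in B lineage- and 15.7 CPM in megakaryocyte-gated cells. Mcpt8, a basophil protease gene, was at 264 CPM in eosinophil-gated cells. Whether such levels come from RNA outside the cell, from doublets or from the cells themselves was not tested.

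Basophil/mast-gated cells were led by Ero1l, at 1504 CPM against 34.0 to 732 CPM in the other classes. They held 31.9% of the Ero1l UMIs in the coculture library and 10.8% of all UMIs there. Hk2 (183 CPM), Pfkp (270 CPM) and Slc2a3 (217 CPM) were also at least 2-fold higher than in the other gated cells, and Pfkfb4 and Pdk1 lower, 4 and 2 genes against 5.19 and 10.8% of measured genes. Hk2 and Pfkp were highest in this class, clear of the next.

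Mature dendritic-gated cells, which carry the homing receptor gene Ccr7 at 2548 CPM, had 4 genes higher and 11 lower (background 18.6 and 25.4%). Bhlhe40 stood at 619 CPM, with 232 CPM in the next class, and Pfkfb3 at 253 CPM, with 82.7 CPM in the next. Vegfa at 345 CPM overlapped with neutrophil-gated cells (323 CPM). Ndrg1 was the fourth, at 105 CPM. In the same cells Hilpda (17.2 CPM), Ero1l (43.8 CPM) and Egln3 (30.5 CPM) were at least 2-fold lower. Of the 10 other hypoxia targets 3 were higher and 3 lower in this class, and their sum was at 2271 CPM against 2437 CPM in the other gated cells.

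Progenitor-gated cells, defined by Elane at 8310 CPM, had 0 genes higher and 8 lower (background 7.04 and 19.7%), although their summed share was the second highest. Mif was highest in them, at 2095 CPM, with 1616 CPM in eosinophil-gated cells. Tpi1 at 941 and 937 CPM and Pfkl at 148 and 147 CPM were level with the next class.

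Megakaryocyte-gated cells had 1 gene higher, Slc2a3 at 235 CPM, and 13 lower (background 16.5 and 14.3%), with Hif1a at 42.6 CPM and Hk2 at 14.2 CPM. In B lineage-gated cells 24 genes were lower and 1 higher, against 18.1 and 13.9% of 8834 measured genes. The 1 was Ankrd37, at 96.4 and 38.3 CPM, which no longer passed with each cell given equal weight, while Egln3 stood at 8.09 CPM, Hk2 at 11 CPM and Vegfa at 16.2 CPM. In T/NK-gated cells 20 were lower and 1 higher, against 20.5 and 17% of 8908, on 215655 UMIs in all. That 1 was Pdk1, at 232 CPM, with 73.4 CPM in neutrophil-gated cells, the next class. Ndrg1 had 0 UMIs in T/NK-gated cells. B lineage-gated cells had the lowest level of 17 genes and T/NK-gated cells of 7, while Pfkfb4 was second highest in B lineage-gated cells (17.2 CPM, overlapping with 19.6 CPM in neutrophil-gated cells).

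**Figure D4:**
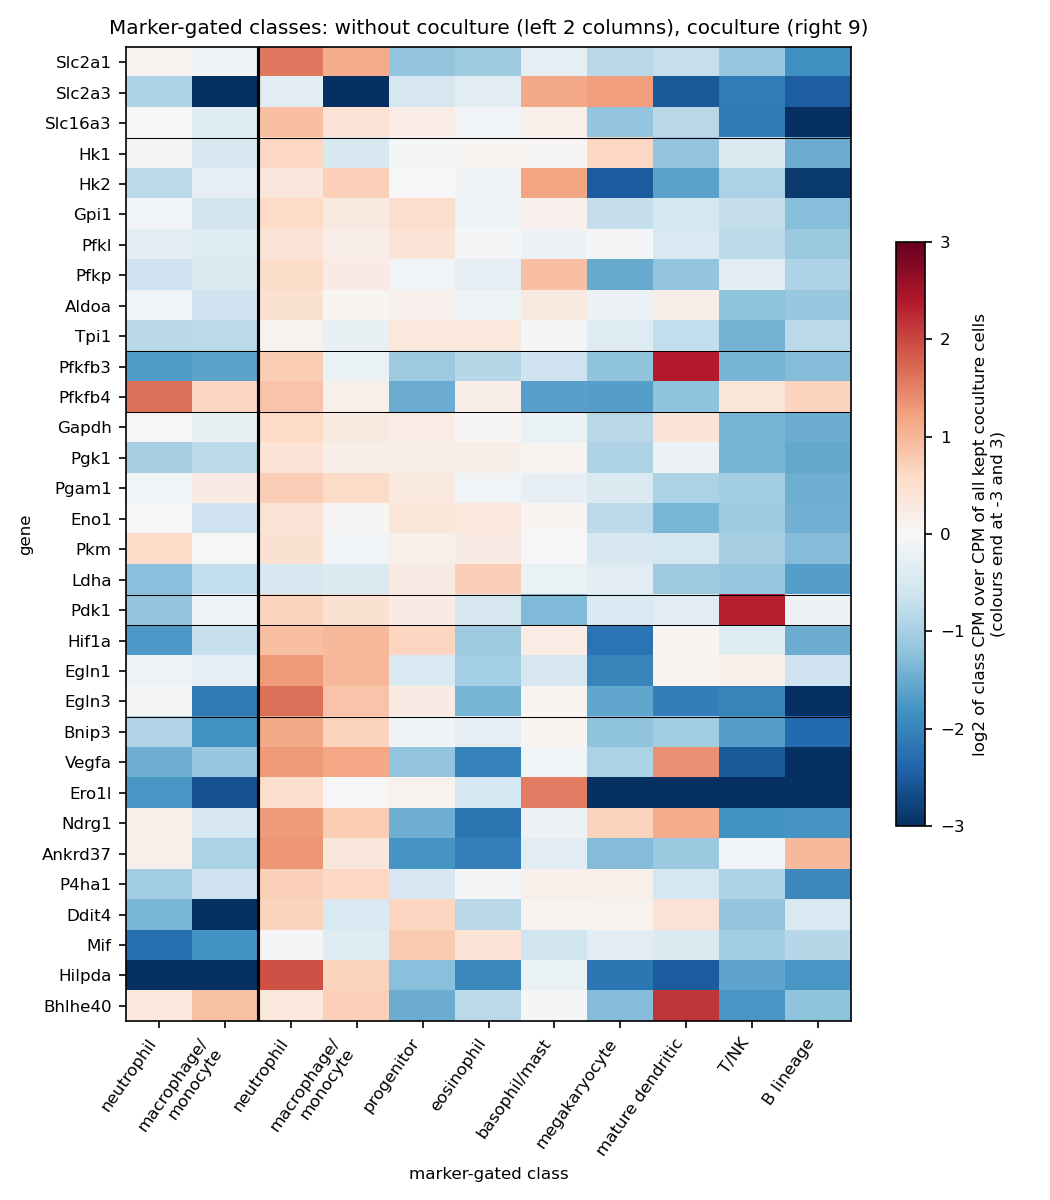
Colour gives the log2 of a class's CPM over the CPM of all kept coculture cells, for the 32 genes (rows, grouped by role) in marker-gated classes (columns; 2 classes without coculture left of the line, 9 coculture classes right of it); values under 3 UMIs are drawn at 3 UMIs and colours end at -3 and 3. The neutrophil column of the coculture is mostly red and the B lineage column mostly blue, with Ero1l in basophil/mast cells (1504 CPM), Pfkfb3 and Bhlhe40 in mature dendritic cells and Pdk1 in T/NK cells standing out.

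For pairs of genes with the same or a related reaction, the captured transcripts of a class were split between both members. These counts do not depend on transcript length, but how well each gene is captured was not measured, nor was protein or activity. Slc2a3 made up 83.7% (80.4 to 86.6%) of the Slc2a1 and Slc2a3 UMIs in megakaryocyte-gated cells, 76.3% in basophil/mast- and 66.8% in eosinophil-gated cells. In macrophage/monocyte-gated coculture cells it was 3.57% (1.32 to 7.61%) and without coculture 6.01%. In neutrophil-gated cells it was 38.1% (34.5 to 41.8%) without coculture and 24.2% (21.5 to 27%) in the coculture, and there 18.2% in Arg1-positive and 50% in Arg1-negative cells.

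Pfkfb4 made up 69.1% (63.1 to 74.7%) of the Pfkfb3 and Pfkfb4 UMIs in neutrophil-gated cells without coculture and 19.2% (14.9 to 24.0%) in the coculture. In macrophage/monocyte-gated cells it was 51.2% and 22%, and in mature dendritic-gated cells 1.82%. The balance of this pair thus lay on opposite sides in the 2 libraries for neutrophil-gated cells. Egln3 made up 26.4% of the Egln1 and Egln3 UMIs in macrophage/monocyte-gated cells without coculture and 54.0% (49.0 to 59.0%) in the coculture, against 57.5 and 62.7% in neutrophil-gated cells and 11.1% in B lineage-gated cells.

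Hk2 made up 68.9% (65.6 to 72.0%) of the Hk1 and Hk2 UMIs in basophil/mast-gated cells, 69.5% (62.1 to 76.3%) in macrophage/monocyte-gated coculture cells and 10.2% (6.95 to 14.3%) in megakaryocyte-gated cells. In neutrophil-gated cells it was 37.0% without coculture and 45.0% in the coculture, with intervals of 33.3 to 40.9% and 41.2 to 48.8% that did not overlap. Pfkp made up 73.4% of the Pfkl and Pfkp UMIs in basophil/mast-gated cells and 32% in megakaryocyte-gated cells, the highest and lowest of the 9 coculture classes.

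**Figure D5:**
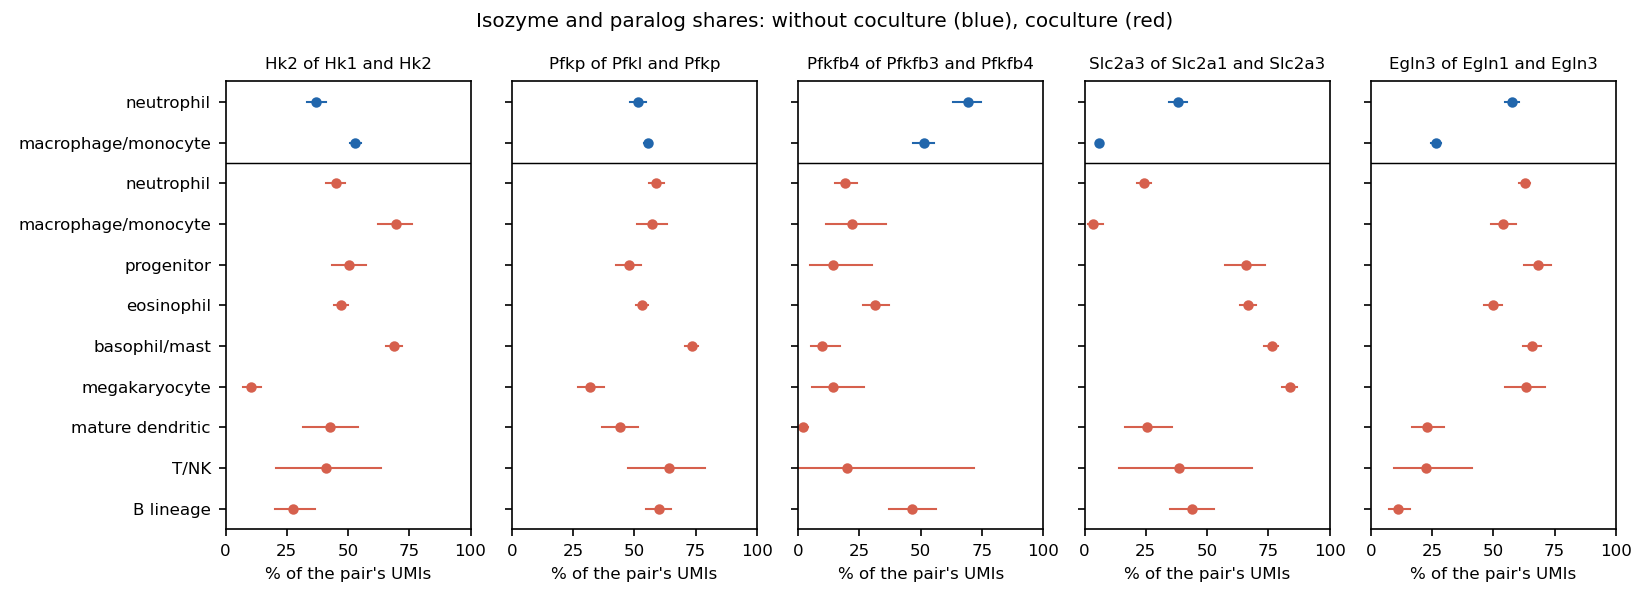
Share of a pair's UMIs held by the named gene (%, horizontal axis, 1 panel per pair) in each marker-gated class (vertical axis), without coculture in blue above the line and coculture in red below it; lines are exact 95% binomial intervals. Slc2a3 runs from 3.57% in macrophage/monocyte- to 83.7% in megakaryocyte-gated coculture cells, and Pfkfb4 from 69.1% to 19.2% between the libraries in neutrophil-gated cells.

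Without coculture the 2 classes differed little in the sum (1.194 and 1.026%). Neutrophil- over macrophage/monocyte-gated cells had 4 genes higher and 2 lower, against 5.77 and 21.4% of 8124 measured genes. Slc2a3 was at 52.3 and 4.87 CPM (3.42), Ddit4 at 20.4 and 4.12 CPM (2.31), Egln3 at 123 and 29.9 CPM (2.04) and Ankrd37 at 54.6 and 25.6 CPM (1.09). Hif1a (-1.06) and Pdk1 (-1.05) were lower in neutrophil-gated cells. In the coculture library Hif1a and Pdk1 were not lower in neutrophil-gated cells, at 373 and 388 CPM and at 73.4 and 63.4 CPM.

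Other genes of the same pathways were counted from lists that are not independent of earlier results. Of 26 measured further genes of oxygen sensing and hypoxia, 11 were at least 2-fold higher and 0 lower in neutrophil-gated coculture cells (median log2 ratio 0.88), and 11 higher and 1 lower of 29 in macrophage/monocyte-gated cells (0.45). Over all measured genes 9.08% were higher and 6.32% lower in the first class, and 8.56 and 12.1% in the second. Plod2, a lysyl hydroxylase gene, held 3 UMIs without coculture and 53 in the coculture in neutrophil-gated cells, and P4ha2, a collagen prolyl hydroxylase subunit gene, 8 and 31. Cxcr4 (-0.64), Narf (-0.58) and Tfrc (-0.57) had the lowest ratios there. The UMI counts of Plod2 and P4ha2 are small. Among genes with more UMIs, chosen after their values were seen, Fam162a was at 202 and 1330 CPM (2.72, 2.62 to 2.82) and the heme oxygenase gene Hmox1 at 57.4 and 368 CPM (2.68). In macrophage/monocyte-gated cells the lower gene was Cxcr4 (-1.62).

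The lists of the branches beside glycolysis and of further isozymes had 7 measured genes or fewer in each class. Their counts are too small to set apart from the shares over all measured genes. Those shares were 9.08% higher and 6.32% lower in neutrophil-gated cells, and 8.56 and 12.1% in macrophage/monocyte-gated cells. Of 7 pentose phosphate pathway genes 0 were higher and 0 lower in either class, with medians of -0.42 and -0.47, from Tkt (-0.72) to Pgls (0.23) in neutrophil-gated cells. Over all cells 0 were higher and 2 lower, Pgd (-1.46) and G6pdx (-1.04), against 12.7 and 11.7% of all measured genes. Of 6 measured genes of pyruvate entry to mitochondria, Mpc2, a subunit of the pyruvate carrier, was lower in neutrophil-gated cells at 404 and 156 CPM (-1.38), and 0 of 7 passed in macrophage/monocyte-gated cells. Mpc2 was lower over all cells too (-1.18). Of 6 isozyme and transporter genes outside the 32, Aldoc was higher (48.7 and 173 CPM, 1.83), and Slc2a6 (-1.88) and Hk3 (-1.03) were lower in neutrophil-gated cells.

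With 15 genes or fewer, the counts of the next lists are too small to set apart from the shares over all measured genes given above. Amino acid and folding stress genes had 1 higher and 2 lower of 15 in neutrophil-gated cells and 0 higher and 3 lower in macrophage/monocyte-gated cells. The amino acid stress genes Asns (45.6 and 11.3 CPM) and Trib3 (30.3 and 13.0 CPM) were the lower ones in neutrophil-gated cells, and the chaperone gene Pdia4 (37.2 and 87.7 CPM) the higher one. Of 5 measured glucocorticoid response genes 0 were higher and 1, Fkbp5 (-1.07), lower in neutrophil-gated cells, and 0 higher and 3 lower in macrophage/monocyte-gated cells, Sgk1 (-2.61) the lowest.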

How the data were processed

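Single-cell libraries were made with a 3′ droplet kit from 2 sorted cell suspensions. The values are whole UMI counts per gene and barcode, deposited by the authors as filtered matrices with software version 3.1.0 per the file headers; bcl2fastq, Cell Ranger and mm10 are named per the submitters' processing notes, and for annotation and cell calling the sources used here give nothing. The deposited matrices held 2180 barcodes and 28294186 UMIs without coculture and 3134 and 29217182 in the coculture. Human transcripts were not analysed here.

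Barcodes below 500 genes or above 10% mitochondrial UMIs were dropped, and the rows of 126 symbols that occur more than once stayed separate genes. Of 14 marker lists, the mast list was joined to the basophil list and the plasmacytoid dendritic list was not used. Cells were gated on the resulting lists at 40 UMIs per 10000 (20 for megakaryocytes, 10 for T/NK, 80 for progenitors). Thresholds were set, and 17 markers left out, after the data were seen. Cells past several gates entered no class, and no doublet caller was run. Without and with coculture, 243 and 100 cells of the whole library had a neutrophil score near the gate and 149 and 66 a macrophage/monocyte score near it, on either side and with cells past several gates included. Counts were summed over cells and divided by total UMIs (CPM). A gene was measured at 10 CPM or more on either side and counted at a 2-fold difference, and a fold against 0 used a floor of 3 UMIs. With 1 library per group no p-value was computed. Poisson intervals (CPM), conditional binomial intervals (ratios) and Clopper-Pearson intervals (shares) are exact, at 95%, and cover counting error only, which is too narrow where few cells hold most UMIs.

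The 32 genes and the lists were chosen with earlier results of these data known. All 32 are accounted for by role; those at least 2-fold apart in a comparison and both genes of the 5 isozyme pairs are given with values, and of the 6 other pathway lists the 3 highest and 3 lowest genes were open to naming by rule, of which 1 is not reported here, and Fam162a and Hmox1 were added after their values were seen. Alternatives changed the filters, scaling, cell weights, CPM minimum and gates. Scripts were tested on simulated counts. Python 3.11.15, numpy 2.4.6, scipy 1.17.1, pandas 2.3.3, R 4.3.3 and edgeR 4.0.16 (TMM factors only) were used.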

Additional observations from a re-analysis of the deposited data

How the results depend on the processing

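The 5 summed ratios below kept their direction under each alternative run; the sums by role, the Arg1 splits and the other class comparisons were not recomputed. No paired analysis was possible because each group is 1 library, and for the same reason no library could be left out. Summed log2 ratios of coculture over no coculture are given for all cells, neutrophil-gated and macrophage/monocyte-gated cells, then for neutrophil- and for B lineage-gated cells over the other gated coculture cells (0.45, 0.78, 0.65, 0.63 and -1.44 as reported). With TMM factors they were 0.31, 0.71, 0.69, 0.86 and -1.58; these factors shifted all genes by -0.14 over all cells and by 0.23 for neutrophil- over other gated cells. Without the 50 most abundant genes in the total, the first 4 were 0.36, 0.66, 0.61 and 0.75. With each cell weighing the same they were 0.19, 0.85, 0.68, 1.09 and -1.56, and 21 rather than 13 genes were higher in neutrophil-gated cells over the others, and 0 rather than 1 in B lineage-gated cells. Without the 5% deepest barcodes they were 0.40 (all), 0.59 (macrophage/monocyte) and 0.68 (neutrophil over others). With limits of 1000 genes and 5% mitochondrial UMIs they were 0.46 (all), 0.60 and -1.42 (both class comparisons). With gates halved the last 4 were 0.80, 0.53, 0.67 and -1.35, and with gates doubled 0.71, 0.53, 0.55 and -1.64. Chosen after seeing the data, a gate on mature neutrophil genes gave 0.72 in neutrophil-gated cells and 0.68 over the others, and a limit to cells low in macrophage markers 0.71 and 0.57.

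The count of genes at least 2-fold lower went from 0 to 1 over all cells with TMM factors, without the 50 most abundant genes, with equal cell weights and without the deepest barcodes, and in neutrophil-gated cells with equal cell weights and in both added gates. The gene was Pfkfb4 each time. Of the 18 genes called higher in neutrophil-gated cells 15 to 18 still passed under these alternatives, of the 15 in macrophage/monocyte-gated cells 12 to 15, and of the 9 over all cells 7 to 9. Hk2, Ndrg1 and Ankrd37 were those lost in neutrophil-gated cells. Ndrg1 in macrophage/monocyte-gated cells reversed to -0.46 with gates halved, on 24 coculture cells, and the cause was not tested. That class held 49, 24 and 37 coculture cells with the stricter filters, halved and doubled gates, below the minimum of 50.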
